A study of Danio rerio with 6 samples.

Results

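The genes described here encode the protein coat of lipoprotein particles and the transfer protein that loads lipid onto them: *apoba* and *apobb.1* (apolipoprotein B), *apoea* and *apoeb* (apolipoprotein E), *apoa1a*, *apoa1b* and *apoa2* (apolipoproteins A-I and A-II), *apoc1* and *apoc2* (apolipoproteins C-I and C-II) and *mttp* (microsomal triglyceride transfer protein). They were chosen by name and function, with earlier results of these data known. Of the 10 listed symbols, 9 stood in the deposited table as written and *mttp* stood there under its older symbol *mtp*, so that 10 of 27335 genes are described. All 10 passed the filter on low values.

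Lipoprotein particles carry triglyceride, cholesterol and phospholipid between tissues. Apolipoprotein B is the large scaffold of the particles that liver and intestine secrete, and of those that the yolk syncytial layer of the zebrafish larva makes from yolk lipid, and in the endoplasmic reticulum Mttp transfers lipid onto it as it is made. Apolipoproteins A-I and A-II coat high-density particles, apolipoprotein E is a ligand for receptors of the LDL receptor family, and the C apolipoproteins modulate lipolysis, with apolipoprotein C-II as the cofactor of lipoprotein lipase.

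The study asked how loss of Tafazzin changes the larval transcriptome. Whole zebrafish larvae at 5 dpf were compared by RNA-seq between MZ *tafazzin* mutants and wild-type larvae, with 3 pools of 25 larvae for each genotype and 1 library for each pool. The mutants were homozygous for an allele with a 1-bp deletion in exon 3 of *taz*, the gene of the cardiolipin transacylase Tafazzin, and came from homozygous parents, so that they lacked both maternal and zygotic wild-type transcript, while the wild-type larvae carried the intact gene. All larvae were untreated as far as the sources state, and only this allele was sequenced. The sources place the pools in the same clutch but also describe separate incrosses of mutant and wild-type fish, so cross and genotype cannot be told apart. Values are FPKM, in which the fragments of a gene are divided by its exon length and by the mapped fragments of the library. Differences were tested on log2(FPKM + 1) with limma over 21843 genes whose mean reached 0.5 FPKM. A gene is said to have risen or fallen where its Benjamini-Hochberg adjusted p was under 0.05.

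The pools are called 0 to 2 after the deposited columns. The targeted gene *taz* was at 6.09, 4.58 and 3.84 FPKM in mutants, against 12.3, 12.04 and 8.53 FPKM in wild-type larvae, with no overlap (44.1% of the wild-type mean, adjusted p = 0.0468 from limma, and 0.0298 to 0.184 with a pool left out). Along principal component 1 (36.1% of the variance) mutant pools 0, 1 and 2 lay at 19.9, 16.4 and 35.2, and wild-type pools 0, 1 and 2 at -29.0, -32.0 and -10.5. Pool 2 thus stood apart from the other pools in each genotype. Results without wild-type pool 2 are given beside those that rest on it. Leaving it out was the only omission that raised the number of genes that passed, to 422 from 199. Without any other pool 15 to 55 passed. Read totals were not known, and from the value of 1 fragment in low genes the libraries differed in relative depth from 0.84 to 1.29 times that of mutant pool 0. In such whole-larva RNA, more cells of a type and more RNA per cell cannot be told apart.

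Of the 10 genes, 4 rose in MZ *tafazzin* mutants and none fell: the apolipoprotein B genes *apoba* (1.57-fold) and *apobb.1* (1.51-fold) and the apolipoprotein E genes *apoea* (1.41-fold) and *apoeb* (1.68-fold). Among all genes tested 0.696% rose and 0.215% fell. Of the 3613 genes that averaged 20 FPKM or more, as all 10 did, 2.13% rose and 0.471% fell, and of the 518 that averaged 100 FPKM or more, as 8 of the 10 did, 1.93% rose and 1.54% fell. The C genes *apoc1* and *apoc2* were also higher in every mutant pool than in every wild-type pool but did not pass the test. The A genes *apoa1a*, *apoa1b* and *apoa2* and the transfer protein gene *mttp* overlapped between genotypes. For each A gene the overlap rested on wild-type pool 2, and every mutant pool was below wild-type pools 0 and 1. The pools of 6 of the 10 genes thus did not overlap, with the mutants higher in each, a pattern shown by 11.9% of all genes tested and by 19.5% of those at 20 FPKM or more. The same 6 had an unadjusted p under 0.05 from limma, as did 9.88% of all genes tested and 18.4% of those at 20 FPKM or more in that direction. The median log2 fold change of the 10 genes was 0.35, against 0.0025 over all genes tested and 0.03 over those at 20 FPKM or more.

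**Figure D1:**
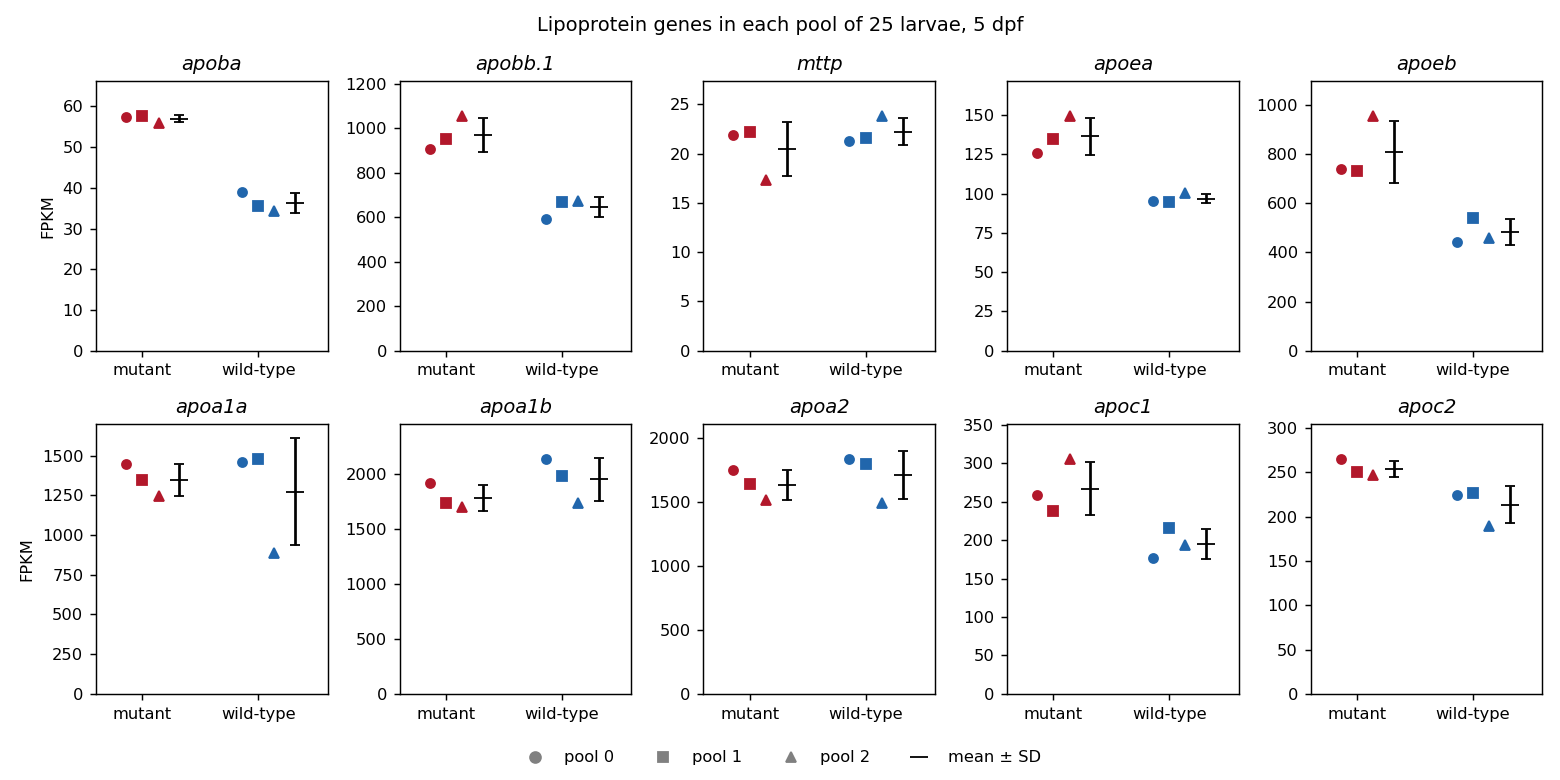
FPKM of each of the 10 genes (vertical axis, starting at 0) in the 3 mutant and 3 wild-type pools of 25 larvae, with a marker for each pool and a bar for the mean ± SD of a genotype. For *apoba*, *apobb.1*, *apoea*, *apoeb*, *apoc1* and *apoc2* every mutant pool is above every wild-type pool, whereas *mttp* and the 3 A genes overlap, and for *apoa1a* wild-type pool 2 at 886 FPKM is far below the others.

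These calls sat close to the threshold. The 4 genes passed with a pseudocount of 0.1, a filter of 5 FPKM, quantile normalization or median scaling, and none of them passed without a filter, without the mean-variance trend or after leaving out any 1 pool other than wild-type pool 2. Without wild-type pool 2, *apoba*, *apobb.1* and *apoea* passed and 1.46% of all genes tested rose. The same 3 genes passed with the column number as a block (1.25% of all genes). Their log2 fold changes stayed positive in each of these fits, as the plot of fold changes with each pool left out shows.

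**Figure D2:**
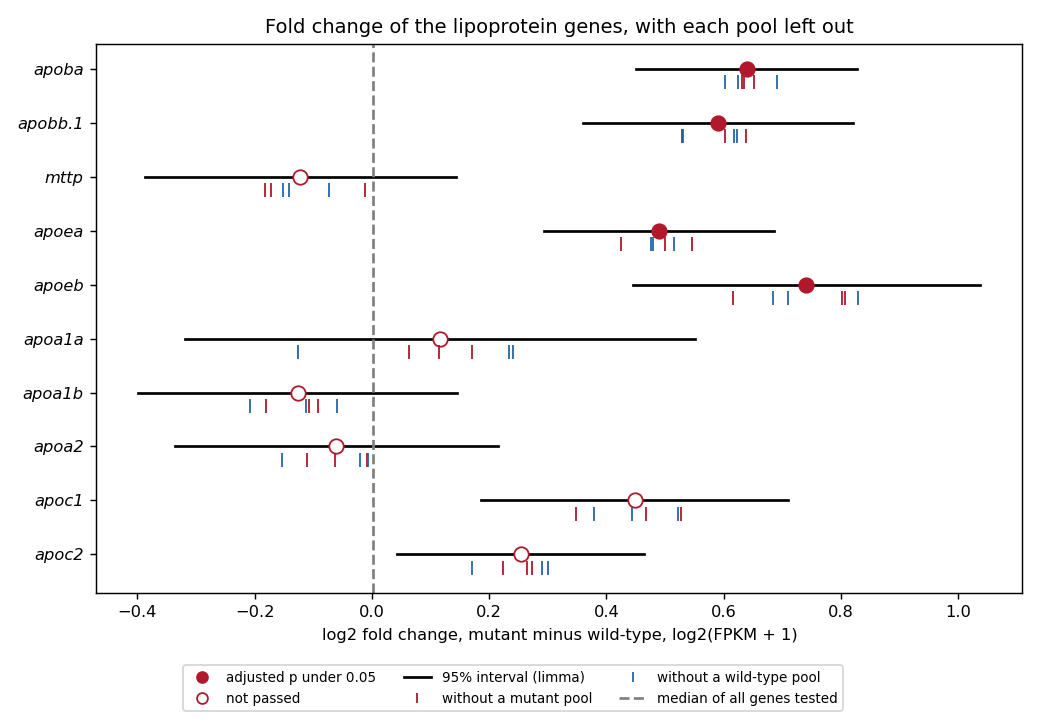
Log2 fold change, mutant minus wild-type, of the 10 genes on the log2(FPKM + 1) scale (horizontal axis), with its 95% interval from limma, and below each the fold change after leaving out 1 mutant or 1 wild-type pool. The intervals of *apoba*, *apobb.1*, *apoea*, *apoeb*, *apoc1* and *apoc2* lie above 0, and the estimate for *apoa1a* is below 0 only without wild-type pool 2.

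The apolipoprotein B genes carry the scaffold of the secreted particle. *apoba* (chromosome 17, 30704068 to 30727966, GRCz11) was at 57.3, 57.6 and 56.0 FPKM in mutant pools 0, 1 and 2, against 39.0, 35.5 and 34.4 FPKM in wild-type pools 0, 1 and 2. The mutant pools differed from each other by at most 1.03-fold, and the lowest of them was well above the highest wild-type pool. The means were 57.0 ± 0.845 FPKM in mutants and 36.3 ± 2.44 FPKM in wild-type larvae (SD over 3 pools of each genotype). On the log2 scale the fold change was 0.64 (SE 0.08, 95% interval 0.45 to 0.83, adjusted p = 0.0169 from limma).

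The main apolipoprotein B transcript was *apobb.1* (chromosome 20, 31269702 to 31284894), with 905, 953 and 1054 FPKM in mutants, against 592, 668 and 673 FPKM in wild-type larvae. Again every mutant pool was above every wild-type pool, and pool 2 was the highest of each genotype. The means were 971 ± 75.8 FPKM in mutants and 644 ± 45.5 FPKM in wild-type larvae, and the log2 fold change was 0.59 (SE 0.10, adjusted p = 0.0405 from limma). The paralogs differed far more in level than in fold change. Per exon length *apobb.1* stood 17.1 ± 1.57 times above *apoba* in mutants and 17.9 ± 2.37 times above it in wild-type larvae, and the ratio of *apoba* to *apobb.1* overlapped between genotypes, with 0.0590 ± 0.00524 in mutants and 0.0567 ± 0.00808 in wild-type larvae (exact permutation test, two-sided, p = 0.8). Another apolipoprotein B gene, *apobb.2*, was near the floor of detection, at 1.12 to 1.73 FPKM in mutants and 0.586 to 1.44 FPKM in wild-type larvae, and did not pass.

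The gene of Mttp, the partner of apolipoprotein B in particle assembly, did not pass. *mttp* (chromosome 1, 12107680 to 12126541) was at 21.9, 22.2 and 17.3 FPKM in mutants, against 21.3, 21.6 and 23.8 FPKM in wild-type larvae. Mutant pools 0 and 1 lay among the wild-type pools and mutant pool 2 was below all of them. The log2 fold change was -0.12 (SE 0.12, 95% interval -0.39 to 0.14, adjusted p = 0.653 from limma), so an increase of the size seen for *apoba* or *apobb.1* lay outside its interval. Within pools, *mttp* per unit of summed apolipoprotein B FPKM was 0.0227, 0.0220 and 0.0156 in mutants, against 0.0337, 0.0307 and 0.0337 in wild-type larvae. These ratios did not overlap and their means differed by -0.72 on the log2 scale, with an exact permutation p of 0.1, the smallest that 3 against 3 pools can give, and an adjusted p of 0.267 over the 4 ratios tested. The summed apolipoprotein B FPKM in the denominator was itself 1.51-fold higher in mutants without overlap, whereas *mttp* alone overlapped.

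Apolipoprotein E is made by many cell types, macrophages, glia and skin among them, beside liver and yolk syncytial layer. *apoeb* (chromosome 16, 23960778 to 23963592) was at 738, 732 and 954 FPKM in mutants, against 442, 541 and 459 FPKM in wild-type larvae. Mutant pool 2 was highest, about as far above the other mutant pools as these were above the highest wild-type pool. The means were 808 ± 126 FPKM in mutants and 481 ± 53.1 FPKM in wild-type larvae, and the log2 fold change of 0.74 (SE 0.13, adjusted p = 0.0438 from limma) was the largest of the 10 genes. It was also the least stable of the 4 calls, with an adjusted p between 0.0618 and 0.174 after leaving out each pool in turn.

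Its paralog *apoea* (chromosome 19, 10855158 to 10859694) was at 126, 134 and 149 FPKM in mutants, against 95.3, 94.8 and 100.1 FPKM in wild-type larvae. The wild-type pools lay within 1.06-fold of each other and all mutant pools were above them, pool 2 again the highest. The means were 137 ± 11.7 FPKM in mutants and 96.8 ± 2.93 FPKM in wild-type larvae (log2 fold change 0.49, SE 0.09, adjusted p = 0.0434 from limma). *apoeb* thus had the higher level, 5.89 ± 0.475 times the FPKM of *apoea* in mutants and 4.98 ± 0.635 times in wild-type larvae. This ratio overlapped between genotypes (exact permutation test, two-sided, p = 0.2, where 0.1 is the smallest possible).

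The 3 A genes were the most abundant of the 10 and none of them passed. *apoa1b* (chromosome 15, 105954 to 108414), which ranked 16th by mean FPKM among all genes of the table, was at 1921, 1734 and 1696 FPKM in mutants, against 2133, 1982 and 1738 FPKM in wild-type larvae. Mutant pool 0 lay among the wild-type pools, and mutant pools 1 and 2 just below the lowest of them. The log2 fold change was -0.13 (SE 0.12, 95% interval -0.40 to 0.15, adjusted p = 0.648 from limma), and its sign changed under quantile normalization. Without wild-type pool 2 it was -0.21 (adjusted p = 0.361 from limma). *apoa2* (chromosome 16, 23978978 to 23980268) was at 1747, 1635 and 1514 FPKM in mutants, against 1830, 1796 and 1492 FPKM in wild-type larvae. The genotypes overlapped, with wild-type pool 2 the lowest of all 6, and the log2 fold change was -0.06 (SE 0.12, 95% interval -0.34 to 0.21, adjusted p = 0.85 from limma), again of the other sign under quantile normalization. Without wild-type pool 2 it was -0.15 (adjusted p = 0.484 from limma).

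*apoa1a* (chromosome 5, 37978512 to 37997785) was the gene with the widest spread. It was at 1446, 1349 and 1247 FPKM in mutants, against 1460, 1476 and 886 FPKM in wild-type larvae. Wild-type pool 2 was 1.67-fold below the highest wild-type pool, and the coefficient of variation was 7.35% among mutants and 26.4% among wild-type pools. The log2 fold change was 0.12 (SE 0.19, adjusted p = 0.812 from limma) with all pools and -0.13 without wild-type pool 2. In the deposited table this gene shares its coordinates with *si:dkey-111e8.1*, which was at 7.31 to 9.27 FPKM in mutants and 6.16 to 8.52 FPKM in wild-type larvae.

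The C genes lay between. *apoc1* (chromosome 16, 23972127 to 23973723) was at 259, 238 and 305 FPKM in mutants, against 177, 216 and 193 FPKM in wild-type larvae. The gap between the lowest mutant and the highest wild-type pool was smaller than the spread within either genotype, and the log2 fold change of 0.45 (SE 0.12, 95% interval 0.19 to 0.71) had an adjusted p of 0.11 from limma. *apoc2* (chromosome 16, 23984755 to 23991161) was at 265, 250.3 and 247 FPKM in mutants, against 224, 227 and 190 FPKM in wild-type larvae. The mutant pools were again all higher, with a log2 fold change of 0.25 (SE 0.09, 95% interval 0.04 to 0.46, adjusted p = 0.224 from limma). Neither gene passed in any of the fits run with a pool left out.

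The order of the 10 genes by level was the same in both genotypes: *apoa1b*, *apoa2*, *apoa1a*, *apobb.1*, *apoeb*, *apoc1* and *apoc2*, *apoea*, *apoba* and *mttp*, apart from the C genes, whose pools overlapped. The pools of *apoa1b* and *apoa2* also overlapped in both genotypes, and those of *apobb.1* and *apoeb* overlapped in mutants only. The highest gene stood 87.2-fold above the lowest in mutants and 87.8-fold above it in wild-type larvae. Together the 10 genes took 1.39% to 1.49% of all FPKM in mutant pools and 1.11% to 1.37% in wild-type pools. Their summed level was 7485, 7104 and 7240 FPKM in mutants, against 7013, 7057 and 5790 FPKM in wild-type larvae, which did not overlap (1.099-fold, exact permutation p = 0.1, the smallest possible). Mutant pool 1 and wild-type pool 1 were nearly level. The means differed by 657 FPKM with all pools and by 241 FPKM without wild-type pool 2, and scaling each pool to the same median brought the pools to overlap (exact permutation p = 0.5).

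Summed by class, the apolipoprotein B genes gave 1028 ± 75.1 FPKM in mutants and 681 ± 43.1 FPKM in wild-type larvae, and the apolipoprotein E genes gave 944 ± 137 FPKM in mutants and 578 ± 51.8 FPKM in wild-type larvae. The C genes gave 521 ± 32.2 FPKM in mutants and 409 ± 30.6 FPKM in wild-type larvae. Each of these 3 sums was higher in all mutant pools, as was each gene in them. The exact permutation p of 0.1 for each sum was thereby fixed and adds nothing to the values of the genes. The A genes gave 4763 ± 330 FPKM in mutants and 4931 ± 710 FPKM in wild-type larvae, which overlapped (exact permutation p = 0.8). This overlap rested on wild-type pool 2, at 4117 FPKM. Wild-type pools 0 and 1, at 5422 and 5254 FPKM, were above every mutant pool (4458 to 5114 FPKM). Levels were also compared between classes within each pool. Apolipoprotein B FPKM per A FPKM was 0.188, 0.214 and 0.249 in mutants, against 0.116, 0.134 and 0.172 in wild-type larvae, and apolipoprotein E FPKM per A FPKM was 0.169, 0.184 and 0.247 in mutants, against 0.0992, 0.121 and 0.136 in wild-type larvae. Neither ratio overlapped between genotypes. They were chosen after the values were seen and were not tested.

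**Figure D3:**
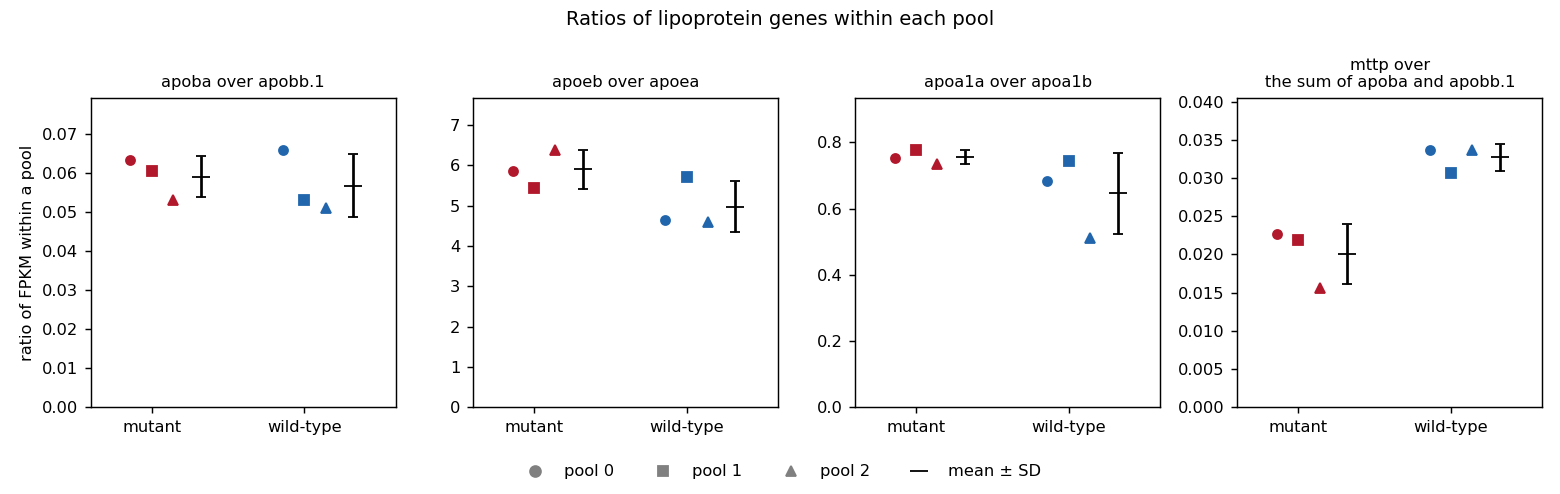
Ratio of FPKM within each pool (vertical axes, starting at 0) for *apoba* over *apobb.1*, *apoeb* over *apoea*, *apoa1a* over *apoa1b* and *mttp* over summed *apoba* and *apobb.1*, with a marker for each pool and a bar for the mean ± SD of the 3 pools of a genotype. Only the ratio with *mttp* separates the genotypes, with 0.0156 to 0.0227 in mutants and 0.0307 to 0.0337 in wild-type larvae. Its denominator also separates them, whereas *mttp* alone overlaps.

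The remaining ratio, *apoa1a* over *apoa1b*, was 0.755 ± 0.0215 in mutants and 0.646 ± 0.122 in wild-type larvae and overlapped (exact permutation p = 0.2). The pools did not deviate in the same direction over the 10 genes. Mutant pool 2 was the highest mutant pool for *apobb.1*, *apoea*, *apoeb* and *apoc1* and the lowest for the other 6 genes. Wild-type pool 2 was the lowest wild-type pool for *apoba*, *apoc2* and the 3 A genes and the highest for *apobb.1*, *apoea* and *mttp*.

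The 10 genes lie on 7 chromosomes, and 4 of them, *apoeb*, *apoc1*, *apoa2* and *apoc2*, lie in a cluster of 8 apolipoprotein genes on chromosome 16 that spans 77.1 kb (23914078 to 23991161, GRCz11). Of these 8, 6 were higher in every mutant pool, as were 11.9% of all genes tested, and 1, *apoeb*, passed. The other genes of the cluster include 3 copies of apolipoprotein A-IV, a protein of intestinal particles. *apoa4b.1* was at 401, 434 and 465 FPKM in mutants, against 351, 368 and 354 FPKM in wild-type larvae, and *apoa4b.2* at 129, 126 and 169 FPKM in mutants, against 75.0, 83.8 and 96.4 FPKM in wild-type larvae. Both had pools that did not overlap, and the second had a log2 fold change of 0.72 (adjusted p = 0.0521 from limma) and passed without wild-type pool 2 (adjusted p = 0.0384). *apoa4b.3* was lower in level and had the largest difference, with 12.1, 12.5 and 27.9 FPKM in mutants, against 4.36, 4.53 and 8.61 FPKM in wild-type larvae (log2 fold change 1.39, adjusted p = 0.0913 from limma). How fragments that match several of these adjacent copies were shared between them is not given in the sources used here, so their separate values are uncertain. *apoc4* was listed at 0 in 3 of the 6 pools.

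In order along the cluster, the log2 fold changes were 0.27 for *apoa4b.1*, 1.39 for *apoa4b.3*, 0.72 for *apoa4b.2* and 0.74 for *apoeb*. They were then 0.45 for *apoc1*, -0.043 for *apoc4*, -0.060 for *apoa2* and 0.25 for *apoc2*. The end genes *apoa4b.1* and *apoc2* were thus alike, and between them the estimates were mostly lower towards *apoc2*. Whether position matters was not tested. The same stretch holds genes of other kinds. Of 7 such genes in the cluster or within 100 kb of it 6 were tested, none passed, and their log2 fold changes ran from -0.37 to 0.29 with a median of -0.0041. Of these, *nbn* and *bcam* were also higher in every mutant pool, as were 11.9% of all genes tested. Apart from *bcam* the tested neighbours averaged 0.892 to 7.95 FPKM, and fold changes of low genes come out too small on this scale. Near *apoea* on chromosome 19, the A-IV gene *apoa4a* was at 2.69, 4.77 and 5.20 FPKM in mutants, against 1.08, 1.24 and 2.89 FPKM in wild-type larvae, which overlapped (adjusted p = 0.157 from limma).

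**Figure D4:**
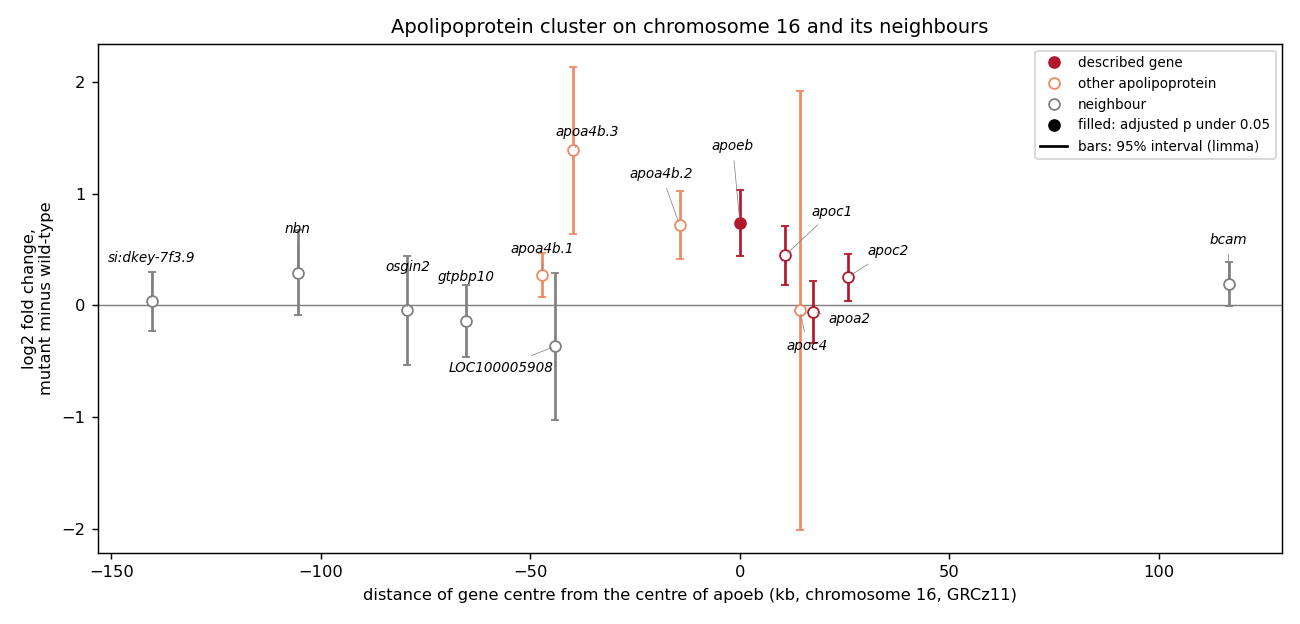
Log2 fold change, mutant minus wild-type, with 95% interval from limma (vertical axis) for the genes of the apolipoprotein cluster on chromosome 16 and its neighbours, placed by the distance of each gene's centre from that of *apoeb* in kb (horizontal axis). *apoa4b.3*, *apoa4b.2* and *apoeb* have the highest estimates, at 1.39, 0.72 and 0.74, and the neighbours lie between -0.37 and 0.29.

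Of 104 further genes of the pathway tested in 6 lists, 2 passed (1.92%), against 0.911% of all genes tested in either direction. Of 8 further lipoprotein apolipoproteins, the A-IV copies among them, none passed and the median was 0.30. A positive log2 fold change was seen in 7 of the 8, and in 11013 of the 21843 genes tested. Among 7 apolipoprotein D, L and O genes, kept as a separate list because the O genes encode proteins of the mitochondrial inner membrane, 1 fell and none rose. This was *apoda.2*, of the lipocalin apolipoprotein D, at 139, 155 and 124 FPKM in mutants, against 235, 238 and 251 FPKM in wild-type larvae (log2 fold change -0.80, adjusted p = 0.014 from limma). It shares its coordinates in the table with *apoda.1*, which was at 5.86 to 11.5 FPKM in mutants and 10.4 to 16.2 FPKM in wild-type larvae. The call was lost without mutant pool 0, wild-type pool 0 or wild-type pool 1 (adjusted p = 0.0669 to 0.0739).

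Of 26 genes of particle assembly and secretion, which act beside *mttp* in loading, folding and export, none passed in either direction, and the median log2 fold change was 0.17. At an unadjusted p under 0.05 from limma, 7 were higher and 4 lower, whereas over all genes tested 9.88% were higher and 6.4% lower at that p. *sec23b*, of the coat of export vesicles, overlapped with all pools and passed without wild-type pool 2 (log2 fold change 0.72, adjusted p = 0.0274). *soat1*, which esterifies cholesterol, was at 3.99, 6.41 and 5.87 FPKM in mutants, against 3.18, 3.18 and 2.41 FPKM in wild-type larvae (adjusted p = 0.126). *mogat2*, which makes diacylglycerol in the enterocyte, was at 14.2, 16.2 and 13.4 FPKM in mutants, against 18.7, 18.97 and 21.2 FPKM in wild-type larvae (adjusted p = 0.118), and shares its coordinates with *map6a*. The *soat1* pools were all higher in mutants and the *mogat2* pools all lower, and neither gene passed.

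Of 16 genes that lipolyse or remodel particles in the circulation, 1 rose and none fell, with a median of 0.02. At an unadjusted p under 0.05 from limma, 4 of the 16 were higher and 2 lower, against 9.88% and 6.4% of all genes tested. The gene that rose was *abca1b*, of the transporter family that moves cellular cholesterol onto apolipoprotein A-I, at 23.3, 25.4 and 29.6 FPKM in mutants, against 12.3, 14.95 and 16.96 FPKM in wild-type larvae. All mutant pools were above all wild-type pools (log2 fold change 0.79, SE 0.14, adjusted p = 0.0433 from limma). It passed without wild-type pool 2 (adjusted p = 0.0305) but not without any other pool (0.0919 to 0.148). Its paralog *abca1a* was at 38.7 to 49.0 FPKM in mutants and 39.8 to 45.03 FPKM in wild-type larvae. *angptl4*, a secreted inhibitor of lipoprotein lipase, was at 26.1, 28.4 and 31.7 FPKM in mutants, against 16.98, 19.8 and 20.4 FPKM in wild-type larvae, and missed the threshold (log2 fold change 0.57, adjusted p = 0.0578 from limma). In the other direction, *lpl*, the gene of lipoprotein lipase itself, was at 29.3, 36.1 and 32.1 FPKM in mutants, against 47.2, 48.4 and 41.3 FPKM in wild-type larvae (log2 fold change -0.48, adjusted p = 0.0757 from limma). Likewise the sterol transporter gene *abcg1* was lower in every mutant pool (adjusted p = 0.139). Neither passed.

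Of 23 receptors and clearance genes none passed, and the median was 0.00054, close to that of all genes tested. At an unadjusted p under 0.05 from limma, 4 of the 23 were higher and 2 lower, against 9.88% and 6.4% of all genes tested. The LDL receptor gene *ldlrb* was at 11.5, 11.5 and 13.5 FPKM in mutants, against 5.64, 4.78 and 10.2 FPKM in wild-type larvae (adjusted p = 0.138 from limma), and passed without wild-type pool 2 (log2 fold change 1.08, adjusted p = 0.0204). *mylipb*, of the ubiquitin ligase family that degrades LDL receptors in mammals, was at 12.7, 10.3 and 14.3 FPKM in mutants, against 5.91, 7.63 and 7.93 FPKM in wild-type larvae (adjusted p = 0.0725), and the fatty acid receptor gene *cd36* was at 41.9, 44.5 and 41.8 FPKM in mutants, against 49.1, 56.4 and 57.0 FPKM in wild-type larvae (adjusted p = 0.118). Of 24 transcription factors that regulate these genes none passed, with a median of -0.05 and 3 in each direction at an unadjusted p under 0.05. *srebf2*, the activator of cholesterol genes, was at 20.01 to 22.6 FPKM in mutants and 13.5 to 19.04 FPKM in wild-type larvae (adjusted p = 0.157), and *rxrab*, a retinoid X receptor, at 12.1 to 15.2 FPKM in mutants and 9.36 to 10.8 FPKM in wild-type larvae (adjusted p = 0.2).

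**Figure D5:**
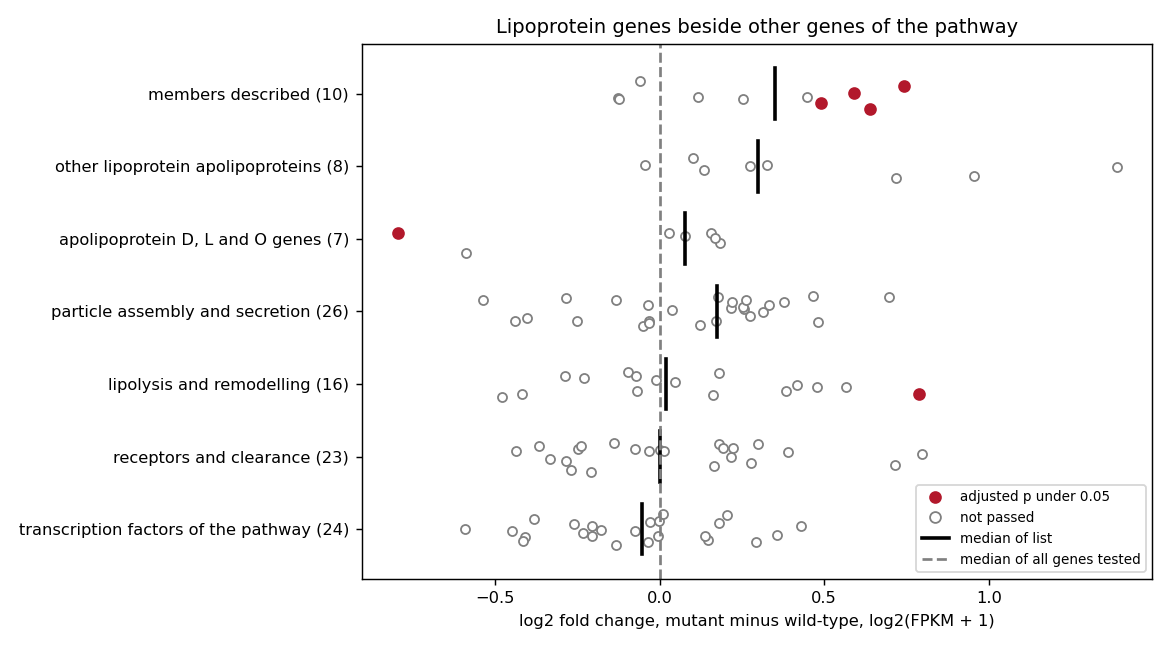
Log2 fold change, mutant minus wild-type, on the log2(FPKM + 1) scale (horizontal axis) of each gene tested in the 10 genes described and in 6 further lists of the lipoprotein pathway, with the median of each list as a black line and that of all genes tested as a dashed line. Filled points passed at an adjusted p under 0.05: 4 of the 10 genes described, *apoda.2* and *abca1b*.

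Markers of 6 cell types were measured beside the 10 genes, and none of the marker genes was at 0 in any pool. The yolk syncytial layer had no list among them. The 18 hepatocyte markers summed to 2244 to 2366 FPKM in mutants and 2084 to 2314 FPKM in wild-type larvae, which overlapped, and none passed. Their members went both ways: 7 of the 18 had a positive log2 fold change, and the median was -0.10. In every mutant pool 5 were higher and 3 lower. Over all genes tested 11.9% were higher in every mutant pool and 10.5% lower, and of those at 20 FPKM or more 19.5% and 13.9%. The fibrinogen genes *fga*, *fgb* and *fgg* were 1.55-, 1.44- and 1.49-fold the wild-type mean without overlap (adjusted p = 0.113 to 0.175 from limma), folds of the size of the apolipoprotein B and E genes. The plasma retinol carrier gene *rbp4*, the most abundant of the list, was at 736 to 902 FPKM in mutants and 517 to 667 FPKM in wild-type larvae (adjusted p = 0.173). The protease inhibitor genes *serpina1* and *serpina1l* and the fetuin gene *ahsg2* were lower in every mutant pool, and *fabp10a* (360.1 to 401 FPKM in mutants, 333 to 418 FPKM in wild-type larvae) and the transferrin gene *tfa* (255 to 407 FPKM in mutants, 383 to 443 FPKM in wild-type larvae) overlapped. The 15 enterocyte markers summed to 1033 to 1187 FPKM in mutants and 1115 to 1396 FPKM in wild-type larvae. None of the 14 tested passed, 3 were lower in every mutant pool and none was higher, and the most abundant, *fabp2*, *chia.2* and *fabp6*, overlapped. Without wild-type pool 2, 1 hepatocyte and 1 enterocyte marker passed, as did 422 of all 21843 genes tested.

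The 8 radial and Müller glia markers summed to 734, 796 and 950.4 FPKM in mutants, against 616, 602 and 725 FPKM in wild-type larvae, and none passed. Of the 8, 2 were higher in every mutant pool and none lower, against 11.9% and 10.5% of all genes tested. Their median log2 fold change was 0.22. The full separation of the sums rested on the glutamine synthetase gene *glula*, at 255, 279 and 409 FPKM in mutants, against 178, 174 and 189 FPKM in wild-type larvae (adjusted p = 0.0655 from limma). Without *glula* the other 7 summed to 479, 517 and 541 FPKM in mutants, against 438, 428 and 536 FPKM in wild-type larvae. These sums overlapped only through wild-type pool 2. Of the next most abundant, *fabp7a* overlapped. *slc1a2b* overlapped only through wild-type pool 2, at 147.74 FPKM, against 147.73 FPKM in the lowest mutant pool. The 16 macrophage and microglia markers summed to 59.3 to 65.5 FPKM in mutants and 44.1 to 60.1 FPKM in wild-type larvae and overlapped, with none passing. That overlap rested on wild-type pool 2, at 60.1 FPKM. Of the 16, 3 were higher in every mutant pool and 1 lower, against 11.9% and 10.5% of all genes tested. The median log2 fold change was 0.16. Of the most abundant of these markers, *slc7a7* and *ctss2.2* overlapped and *csf1ra* was higher in every mutant pool (adjusted p = 0.274 from limma).

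The 11 epidermal keratinocyte markers summed to 4165 to 5349 FPKM in mutants and 5881 to 7819 FPKM in wild-type larvae. Of them 1 rose and 1 fell, against 0.696% and 0.215% of all genes tested. In every mutant pool 4 were higher and 5 lower, against 11.9% and 10.5% of all genes tested. The 14 exocrine pancreas markers summed to 8525 to 9235 FPKM in mutants and 11636 to 12879 FPKM in wild-type larvae. Of them 3 fell, against 0.215% of all genes tested and 1.54% of those at 100 FPKM or more. In all, 13 of the 14 were lower in every mutant pool, against 10.5% of all genes tested and 23.6% of those at 100 FPKM or more. The median log2 fold change of the 14 was -0.53. The keratin genes *krt4*, *krt91* and *krt5* and the digestive protease genes *try*, *ctrb1* and *prss59.2*, the most abundant of each list, were lower in every mutant pool but did not pass. With a pool left out, 0 to 6 of the pancreas markers and 0 to 2 of the keratinocyte markers passed, most without wild-type pool 2. The part of all these marker differences in the levels of the 10 genes was not tested.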

How the data were processed

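RNA of 3 pools of 25 MZ *tafazzin* mutant larvae and 3 pools of 25 wild-type larvae at 5 dpf was sequenced. By the methods and the processing notes of the submitters, reads were trimmed with Trim Galore 0.4.2, aligned to GRCz11 with STAR 2.5.3 and quantified with Cufflinks 2.2.1. The authors deposited FPKM per gene and pool, and no read counts were used here. Columns with the authors' own fold changes and p-values from Cuffdiff, and a second table, were not used. Column names give the genotype and a number from 0 to 2 that matches no sample title, so columns were used as unlabelled replicates. The p-values from limma set the difference between genotypes against the spread among these pools, not among further clutches.

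In limma 3.58.1 (R 4.3.3), log2(FPKM + 1) was fitted with a mean-variance trend for 21843 genes whose mean reached 0.5 FPKM, with Benjamini-Hochberg adjustment over all of them, and the fit was tested on simulated data. Fold changes of low genes come out too small on this scale. Single values per pool were compared by two-sided exact permutation tests (Python 3.11.15, scipy 1.17.1). The alternatives left out each pool in turn, used the column number as a block, dropped the trend, dropped the filter or raised it to 5 FPKM, lowered the pseudocount to 0.1, or scaled pools by quantiles or to 1 median.

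The 10 genes and all lists were chosen with earlier results of these data known. Named were all 10, in each further list every gene that passed or the 2 of smallest p where fewer than 2 passed, and the 3 most abundant markers of each list. After their values were seen, *abca1a*, *apobb.2*, *apoa4a*, *apoa4b.1* and *apoc4* were named for their kinship to named genes, and *lpl*, *abcg1*, *ldlrb*, *sec23b*, *fga*, *fgb*, *fgg*, *serpina1*, *serpina1l* and *ahsg2* for their values. Of 202 listed symbols 196 were matched, 7 of them through RefSeq synonyms. Deposited starts count from 0 and are given here from 1. At most 0.0603% of genes had equal FPKM in any pair of pools, and all 6 pools were kept.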

Additional observations from a re-analysis of the deposited data

How the results depend on the processing

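Of the 10 genes, 4 rose with all pools; 0 rose without a filter and 0 without the mean-variance trend, and 0 to 3 after leaving out each pool in turn, 3 only without wild-type pool 2. None fell in any fit. With the column number as a replicate block 3 rose, *apoeb* having an adjusted p of 0.0525 from limma. Deviations of same-numbered pools had small correlations across genes (0.0346, 0.0026 and 0.0753). With only 3 pools of each genotype, these values cannot decide whether the numbers pair the pools. Over all genes tested, 199 passed in the main comparison, 6 without a filter, 38 without the trend, 353 with the replicate block and 15 to 422 with a pool left out. Of the other pathway genes 2 passed, against 0 without a filter or without the trend, 4 with a filter of 5 FPKM, quantile normalization or median scaling, 6 with the replicate block and 0 to 5 with a pool left out. The log2 fold change of *apoa1a* ran from -0.13 without wild-type pool 2 to 0.24 without wild-type pool 1, and under quantile normalization those of *apoa1b* and *apoa2* were 0.0090 and 0.087. The difference in the log2 ratio of *apoba* to *apobb.1* ran from -0.0085 without wild-type pool 2 to 0.18 without wild-type pool 0. The mean summed level of the 10 genes stayed higher in mutants in each alternative run, by 241 to 875 FPKM with a pool left out. The cause of these changes was not tested. Low genes such as *apoc4* and *apobb.2* are limited most by depth, of which only the ratios between pools are known.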
